A study of Homo sapiens with 8 samples.

Results

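ANKRD1 stood apart among 10 genes of the YAP/TEAD pathway when HepG2 cells were kept with sodium benzoate (SB). Its mean level was 5.37 times that of the control cells, whereas CTGF and CYR61, the pair of genes most often read together with it as YAP targets, were lower. AMOTL2, AMOTL1 and LATS2 were higher, YAP1 and WWTR1 were lower, and TEAD1 and AJUBA had overlapping values. The 10 genes were chosen from a list of pathway components and targets, with their change in this same contrast already known, and all 10 have a row in the deposited table of 14526 genes. The values of the 10 genes are therefore given as a description, with no test. The 4 SB-treated values lay above the 4 control values for 4 of the 10 and below them for another 4, where 31% and 30.5% of all 14526 genes did so.

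YAP (gene YAP1) and TAZ (gene WWTR1) are transcriptional co-activators that bind no DNA themselves and reach their targets through the TEAD transcription factors. The Hippo kinase cassette, in which MST kinases act on LATS kinases, phosphorylates YAP and TAZ and keeps them out of the nucleus, and angiomotins and LIM-domain scaffolds at cell junctions hold the co-activators or the kinases. CTGF, CYR61 and ANKRD1 are commonly used readouts of YAP activity, AMOTL2 and LATS2 are targets that feed back on the pathway, and YAP is known in liver as a regulator of organ size and of tumour growth.

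The cells are labelled HepG2, a line derived from a human liver carcinoma, grown in DMEM with 10% fetal bovine serum. The control group held 4 biological replicates without SB, and the SB-treated group held 4 replicates given 10 mM SB, the salt of benzoic acid used as a food preservative, for 24 h before harvest. Total RNA was sequenced, and the values are RPKM (reads scaled to the length of the gene and to the library size), so levels of different genes can be set side by side per length. A fold change below is the SB-treated minus the control mean of log2(RPKM + 1), with its standard error (SE) from limma, a scale on which genes of low RPKM show less than their ratio.

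Reads on the tabulated genes ranged from 36990091 to 44878446 per library. A limma adjusted p-value below 0.05 was reached by 4787 rises and 4740 falls, so that 50.2% of the calls were rises, against 65.1% when the libraries were not scaled with TMM factors (the trimmed mean of M values, a correction for library composition). The median log2 ratio of all genes was 0.0077 with these factors and 0.11 without them. Control replicate 1 stood apart from the other controls, with a chi-square per degree of freedom of the reads between 33.4 and 38.4, compared with 1.52 to 3.80 for the other pairs of replicates. Of 20 genes that mark hepatocytes, 18, albumin (ALB) among them, have no row in the table used here, and TF (transferrin) was low, at 0.192 ± 0.0188 RPKM in the controls and 0.379 ± 0.0748 RPKM with SB (SD, n = 4). Of 10 fibroblast markers 4 had a row, with sums from 6.63 to 8.97 RPKM and from 6.62 to 6.98 RPKM, and PDGFRB, THY1 and DCN were among those without one. Those with a row did not move one way: COL3A1 fell by 0.48 on the log2 scale (limma adjusted p = 3.35e-05), LUM rose by 0.26 (limma adjusted p = 0.00803), and COL1A1 and PDGFRA did not pass. Of 8 endothelial markers only KDR and ESAM had a row, with sums from 1.02 to 1.28 RPKM and from 1.93 to 2.25 RPKM, and PECAM1, CDH5 and VWF had none. KDR fell by 0.20 on the log2 scale (limma adjusted p = 0.00104) and ESAM rose by 0.67 (limma adjusted p = 2.66e-06). Only genes with a CPM (read count scaled to the library size) above 1 in at least 2 samples were kept by the authors. A marker without a row may thus have been below that filter. What these levels mean for the HepG2 label was not tested. The part of these marker levels in the changes below was not tested either, and in bulk RNA fewer cells of a type and less RNA per cell cannot be told apart.

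The promoters of ANKRD1 and CTGF, which moved in opposite directions, are shown because both carry the 6-base core GGAATG that TEAD factors bind. The 250 bases before each RefSeq start (GRCh38.p14) are printed in the direction of transcription, and capitals mark each GGAATG. The ANKRD1 stretch is chr10:90921088-90921337 and the CTGF stretch is chr6:131951373-131951622, both on the minus strand.
ANKRD1: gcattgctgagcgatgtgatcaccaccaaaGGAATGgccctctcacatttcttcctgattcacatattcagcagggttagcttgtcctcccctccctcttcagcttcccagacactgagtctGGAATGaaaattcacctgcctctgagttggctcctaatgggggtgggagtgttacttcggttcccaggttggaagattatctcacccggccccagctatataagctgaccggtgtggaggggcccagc
CTGF: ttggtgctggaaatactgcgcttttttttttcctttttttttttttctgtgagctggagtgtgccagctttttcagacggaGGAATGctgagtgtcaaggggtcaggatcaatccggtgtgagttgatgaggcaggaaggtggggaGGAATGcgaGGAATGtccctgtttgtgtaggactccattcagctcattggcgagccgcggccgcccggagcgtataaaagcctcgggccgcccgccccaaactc
The ANKRD1 stretch holds 2 matches, 220 and 128 bases before the start, and the CTGF stretch holds 3, at 169, 104 and 95 bases. Searched on both strands, GGAATG occurs at least once in 11.9% of the 35116 RefSeq promoter stretches of this length, at least 2 times in 0.940% and at least 3 times in 0.0826%. A promoter entry was found for 8 of the 10 genes, CYR61 and TEAD1 being without one, and 5 of the 8 had a match in at least one of their stretches. That count is per gene, over 11 stretches in all, whereas the 11.9% is a share of stretches, so the figures are not alike. YAP1 had 1 match at 162 bases, AJUBA had 1 at 59 bases before its second start, and AMOTL2 had 1 on the opposite strand at 69 bases before its second start. AMOTL1, LATS2 and WWTR1 had no such letters in the windows searched. The motif TGANTCA, which AP-1 factors bind and which reads the same on both strands apart from its middle base, occurred in the ANKRD1 stretch at 195 bases before the start and in 6.57% of all stretches. The second AMOTL2 stretch, chr3:134374448-134374697 on the minus strand, is given for comparison, since AMOTL2 was higher with SB as ANKRD1 was and its match lies in the reverse direction (CATTCC in capitals).
AMOTL2: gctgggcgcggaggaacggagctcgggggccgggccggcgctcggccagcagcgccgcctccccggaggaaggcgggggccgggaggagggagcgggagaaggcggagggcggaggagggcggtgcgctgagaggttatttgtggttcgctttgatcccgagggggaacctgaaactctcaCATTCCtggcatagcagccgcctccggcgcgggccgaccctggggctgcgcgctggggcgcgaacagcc

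ANKRD1 encodes a muscle ankyrin repeat protein, also called CARP, that sits at the sarcomere and in the nucleus and is induced by stretch and by YAP. The gene lies on chr10:90912096-90921087 (hg38, minus strand), and its reads were counted over 1974 bases. The 4 control replicates were at 1.58, 1.15, 1.18 and 1.09 RPKM, from 133, 89, 83 and 88 reads. The 4 SB-treated replicates were at 6.68, 6.65, 7.02 and 6.48 RPKM, from 507, 522, 586 and 595 reads. Every SB-treated library was thus more than 4 times as high as the highest control, which was control replicate 1. The means were 1.25 ± 0.226 and 6.71 ± 0.224 RPKM (SD, n = 4), and the log2 fold change was 1.78 (SE 0.064). With the pseudocount of 1 it ranked at 2 of 14526 genes by log2 fold change. Since the control level is near 1 RPKM, the value depends on the pseudocount, and it was 2.35 with a pseudocount of 0.1 and 2.43 with voom on the reads. Without control replicate 1 it was 1.85. The rank depends on the scale too. WWC3 and VSIG2 had larger values than ANKRD1 with a pseudocount of 0.1 (2.50 and 2.57) and with voom (3.32 and 2.82).

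CTGF (also CCN2) encodes a secreted matricellular protein that binds growth factors and integrins. It lies on chr6:131948176-131951372 (minus strand), within the long noncoding RNA gene LINC01013 on the opposite strand, which has no row of its own in the table. Control replicates 1 to 4 were at 3.40, 3.26, 2.91 and 2.99 RPKM, and SB-treated replicates 1 to 4 were at 2.31, 1.93, 2.09 and 2.19 RPKM. The highest SB-treated library was below the lowest control. The mean went from 3.14 ± 0.229 to 2.13 ± 0.161 RPKM (SD, n = 4), 0.678 times the control level, with a log2 fold change of -0.40 (SE 0.052). The size of the change was -0.56 with voom and -0.33 without TMM factors.

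CYR61 (also CCN1), on chr1:85580761-85584589 (plus strand), encodes another secreted protein of the CCN family and was more abundant per length than CTGF in every library. The controls were at 14.6, 13.6, 15.2 and 14.1 RPKM and the SB-treated libraries at 12.6, 12.8, 12.9 and 13.0 RPKM. The groups did not overlap, but the lowest control lay only slightly above the highest SB-treated library. The means were 14.4 ± 0.691 and 12.8 ± 0.177 RPKM (SD, n = 4), and the log2 fold change of -0.16 (SE 0.039) became -0.058 without TMM factors. The other 4 members of the CCN family, NOV and WISP1 to WISP3, have no row in the table used here.

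**Figure D1:**
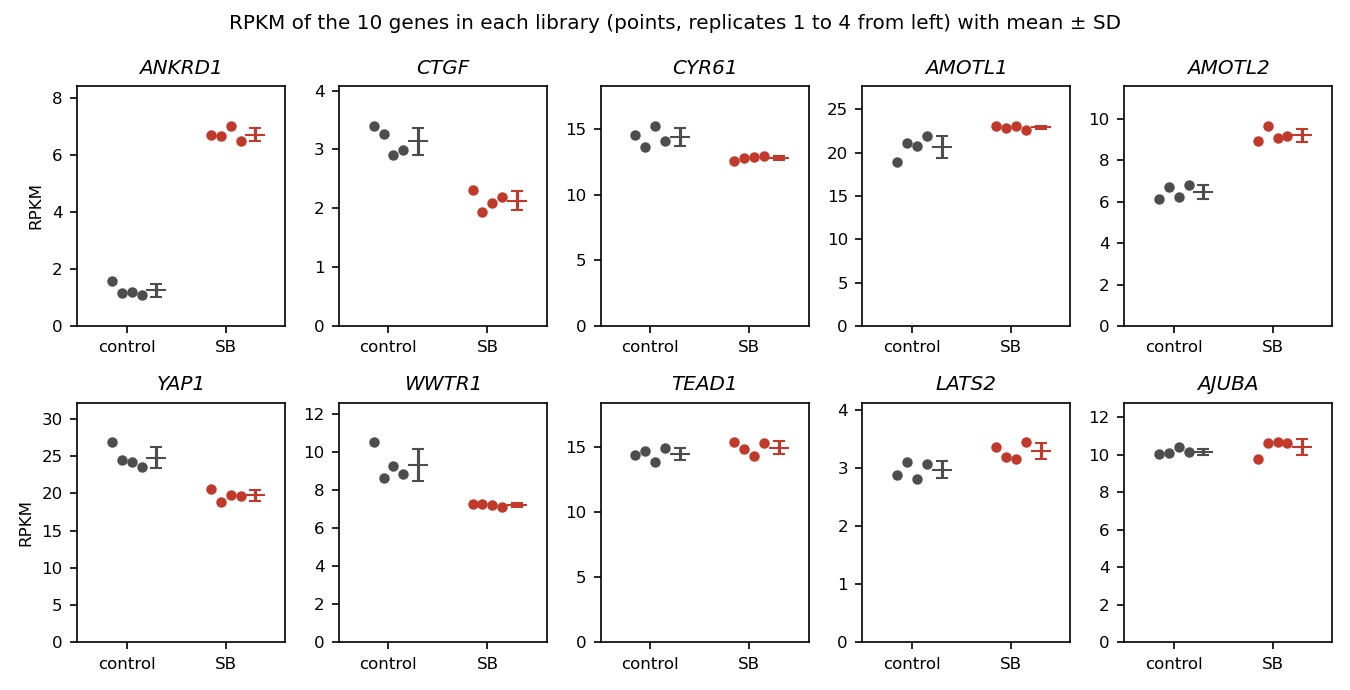
Each panel plots the RPKM of 1 gene, on an axis from 0, with 1 point per library (replicates 1 to 4 from the left, control in grey and SB-treated in red) and the mean ± SD (n = 4) beside the points. ANKRD1 goes from between 1.09 and 1.58 RPKM to between 6.48 and 7.02 RPKM, while CTGF, CYR61, YAP1 and WWTR1 have every SB-treated point below every control point, and the points of TEAD1 and AJUBA overlap.

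AMOTL2 and AMOTL1 encode angiomotin-like scaffolds of tight junctions and actin that bind YAP and hold it outside the nucleus, and AMOTL2 is itself a YAP target. AMOTL2 was at 6.14, 6.72, 6.23 and 6.80 RPKM in the controls and at 8.93, 9.66, 9.09 and 9.19 RPKM in the SB-treated libraries. All 4 treated values lay well above the controls, with means of 6.47 ± 0.336 and 9.22 ± 0.315 RPKM (SD, n = 4) and a log2 fold change of 0.45 (SE 0.042). Among the 10 genes only ANKRD1 had a larger log2 fold change, and the mean of AMOTL2 was 1.42 times the control level. AMOTL1 was at 18.9, 21.1, 20.7 and 21.9 RPKM in the controls and at 23.1, 22.9, 23.1 and 22.6 RPKM with SB, so the groups were close but did not overlap. Control replicate 1 was its lowest library, and the log2 fold change of 0.14 (SE 0.045) was 0.10 without it.

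AMOT, the founding angiomotin and not one of the 10 genes, was the most abundant of the family and fell. It was at 89.8, 93.8, 93.4 and 96.8 RPKM in the controls and at 41.5, 40.3, 39.6 and 40.2 RPKM with SB. This is 0.432 times the control level, with a log2 fold change of -1.19 (SE 0.035, limma adjusted p = 6.15e-08). The summed RPKM of the 3 angiomotins was 120.6 ± 4.40 in the controls and 72.5 ± 0.806 with SB (SD, n = 4), and the groups did not overlap with or without TMM factors. AMOT made up 77.5% ± 0.517 of the sum in the controls and 55.7% ± 0.581 with SB, while AMOTL1 went from 17.1% ± 0.463 to 31.6% ± 0.389 and AMOTL2 from 5.37% ± 0.148 to 12.7% ± 0.453 (SD, n = 4). AMOTL1 and AMOTL2 thus held a larger share of a smaller total.

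YAP1 was the most abundant of the 10 genes in the controls, at 26.8, 24.5, 24.2 and 23.6 RPKM, and was at 20.5, 18.8, 19.8 and 19.7 RPKM in the SB-treated libraries. Its mean went from 24.8 ± 1.42 to 19.7 ± 0.691 RPKM (SD, n = 4), 0.796 times the control level, and its log2 fold change was -0.31 (SE 0.046). WWTR1, which encodes TAZ, was at 10.5, 8.67, 9.28 and 8.88 RPKM in the controls and at 7.30, 7.29, 7.24 and 7.11 RPKM with SB. Both co-activators were thus lower in every treated library than in any control, and control replicate 1 had the highest value of each. The log2 fold change of WWTR1 was -0.32 (SE 0.053), and without control replicate 1 the values were -0.27 for WWTR1 and -0.28 for YAP1. Summed over both genes, the level was 34.1 ± 2.20 RPKM in the controls and 27.0 ± 0.699 RPKM with SB. YAP1 kept a similar part of that sum, 72.7% ± 0.862 and 73.1% ± 0.728 (SD, n = 4), with overlapping values.

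TEAD1, one of the 4 DNA-binding partners of YAP and TAZ, was at 14.4, 14.7, 13.9 and 15 RPKM in the controls and at 15.4, 14.8, 14.3 and 15.4 RPKM with SB. The groups overlapped, and the log2 fold change was 0.044 (SE 0.038). Among the other TEAD genes, TEAD2 fell from 19.5 ± 1.52 to 14.9 ± 0.622 RPKM (SD, n = 4), and its log2 fold change was -0.36 (limma adjusted p = 0.000374). TEAD4 had a log2 fold change of -0.14 (limma adjusted p = 0.0304), but its groups overlapped and the call was lost without TMM factors (adjusted p = 0.481) and in 6 of the 8 fits that left out 1 library. TEAD3 was at 3.16 ± 0.426 and 3.22 ± 0.314 RPKM (limma adjusted p = 0.819). The sum of the 4 TEAD genes was 59.4 ± 3.46 RPKM in the controls and 53.1 ± 1.01 RPKM with SB, and control replicate 1 at 54.3 RPKM lay below SB-treated replicate 2 at 54.5 RPKM. Without TMM factors these sums were 57.3 ± 3.64 and 55.1 ± 1.10 RPKM (SD, n = 4), and the groups also overlapped. TEAD1 made up 24.4% ± 1.47 of the sum in the controls and 28.2% ± 1.2 with SB.

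**Figure D2:**
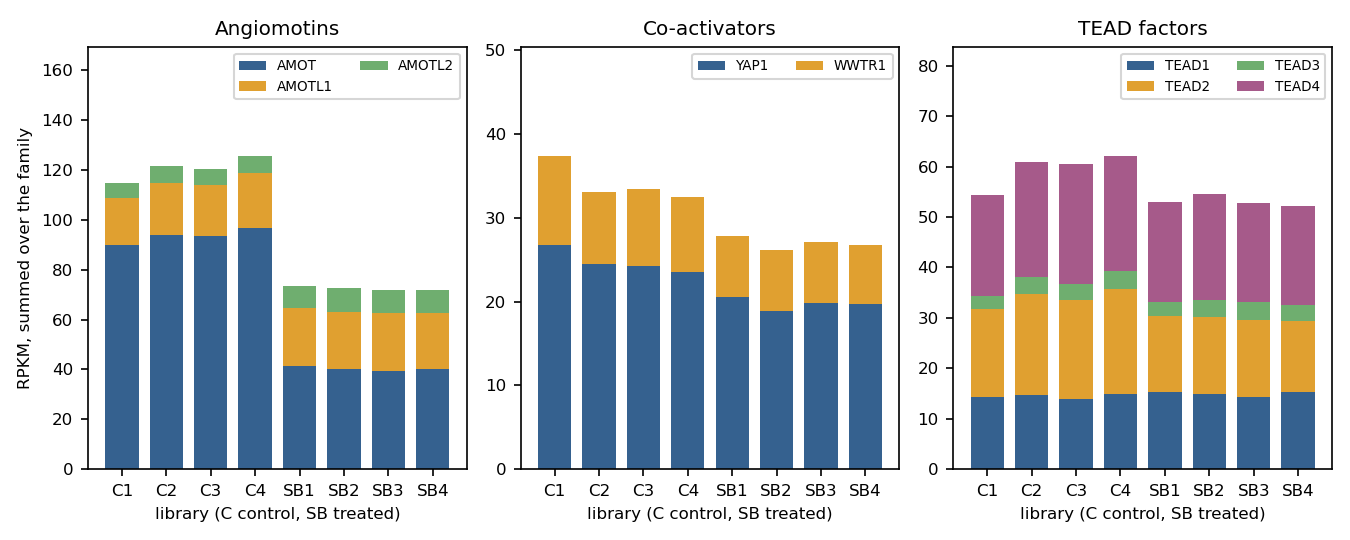
Stacked bars show the RPKM of each family member in each library, summed over the family, for the angiomotins, the co-activators and the TEAD factors (C1 to C4 control, SB1 to SB4 SB-treated, each axis from 0). The angiomotin stack goes from 120.6 to 72.5 RPKM on average and its AMOT segment from 93.5 to 40.4 RPKM, the co-activator stack is lower in all 4 SB-treated libraries, and the TEAD1 segment is of about the same height in all 8.

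LATS2 encodes a kinase that phosphorylates YAP and TAZ, and AJUBA encodes a LIM-domain protein that binds LATS kinases at junctions. LATS2 was at 2.88, 3.11, 2.82 and 3.07 RPKM in the controls and at 3.37, 3.18, 3.16 and 3.44 RPKM with SB. The lowest treated library was just above the highest control, and the log2 fold change was 0.11 (SE 0.040). AJUBA was at 10.0, 10.1, 10.4 and 10.1 RPKM in the controls and at 9.79, 10.6, 10.6 and 10.6 RPKM with SB. SB-treated replicate 1 lay below all controls and the other 3 lay above them, so the groups overlapped, with a log2 fold change of 0.033 (SE 0.037). An unnamed protein-coding gene model overlaps AJUBA on the same strand and has no row of its own. LATS1, the partner kinase of LATS2, named here after its values were seen, was 0.25 higher on the log2 scale (limma adjusted p = 0.00155) and made up 86.9% of the summed LATS level in the controls.

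By mean RPKM, the order in the controls was YAP1, AMOTL1, TEAD1, CYR61, AJUBA, WWTR1, AMOTL2, CTGF, LATS2 and ANKRD1. Neighbours whose ranges overlapped were TEAD1 and CYR61, AJUBA and WWTR1, and CTGF and LATS2. In the SB-treated cells the order was AMOTL1, YAP1, TEAD1, CYR61, AJUBA, AMOTL2, WWTR1, ANKRD1, LATS2 and CTGF, and no neighbours had overlapping ranges. ANKRD1 moved from the last place past LATS2 and CTGF to just below WWTR1, and CTGF became the lowest. Within the whole table these levels run from low to high: 17.0% of genes were at or below the control mean of ANKRD1, 29.9% at or below that of CTGF and 77.7% at or below that of YAP1.

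**Figure D3:**
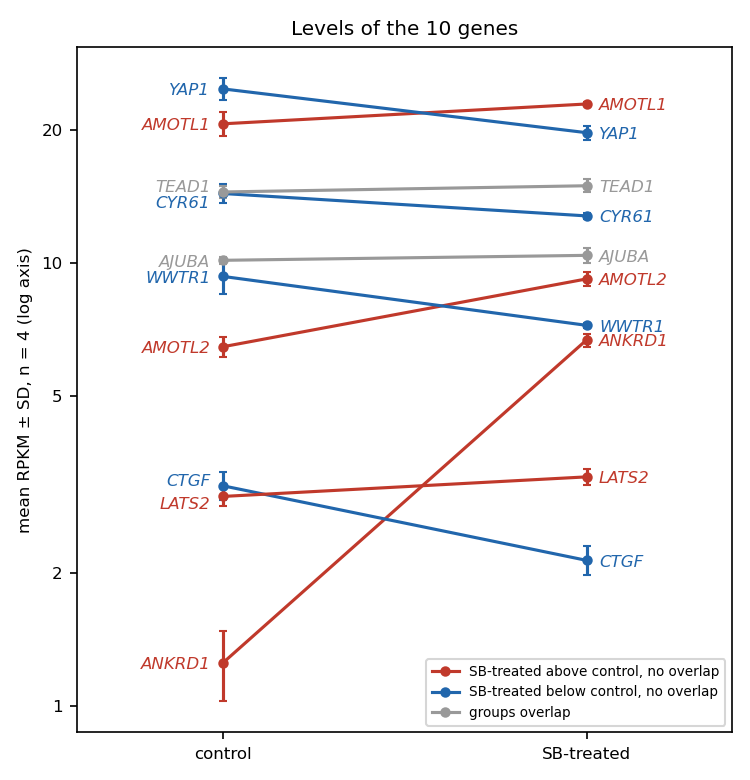
Lines join the mean RPKM (± SD, n = 4, log axis) of each of the 10 genes in control and SB-treated cells, in red where all SB-treated values lie above the controls, in blue where they lie below, and in grey where they overlap. The ANKRD1 line is the steepest and crosses those of LATS2 and CTGF, and the YAP1 and AMOTL1 lines cross at the top.

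With a limma adjusted p-value below 0.05, 4 of the 10 genes would be called higher and 4 lower, where 33% of all genes were called higher and 32.6% lower. Nothing is read from these counts or from the calls of single genes, since the genes were selected on this contrast. As a description, the calls depended on the setting for 4 of the 10. CYR61 did not pass without TMM factors, and TEAD1 and AJUBA passed as higher only in that setting. LATS2 lost the call without control replicate 3, SB-treated replicate 1 or SB-treated replicate 4. The median log2 fold change of the 10 genes was 0.039, and that of all 14526 genes was 0.0045.

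To place the 10 genes among the rest of the pathway, 88 genes were listed by role, of which 77 have a row and 67 are not among the 10. Of these 67 genes, 23 rose, 16 fell and 28 did not pass the test, beside 33% and 32.6% of all genes. Without TMM factors 33 rose and 9 fell. The median log2 fold change of the 67 genes was 0.026.

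In the kinase cassette, 7 of 21 further genes rose, 3 fell and 11 did not pass, beside rises in 33% and falls in 32.6% of all genes. WWC3, which encodes a scaffold of the KIBRA family that acts on LATS kinases, was at 0.105 ± 0.0204 RPKM in the controls and at 1.05 ± 0.0649 RPKM with SB (SD, n = 4). It had 22 to 33 reads in each control and 265 to 326 in each treated library, and its log2 fold change of 0.89 (limma adjusted p = 1.49e-07) was 3.32 with voom. MINK1, a MAP4K-family kinase that can phosphorylate LATS, rose by 0.41 on the log2 scale (limma adjusted p = 1.3e-05), from 10.4 to 14.1 RPKM. TNIK, a close relative of MINK1, fell by 0.31 on the log2 scale (limma adjusted p = 2.1e-05), from 15.4 to 12.2 RPKM.

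Among the junction and scaffold regulators, 8 of 18 further genes rose, AMOT was the 1 that fell and 9 did not pass. Of all genes, 33% rose and 32.6% fell, and nothing is read from the split of so short a list. DLG5, a scaffold of cell polarity complexes, rose from 7.96 ± 0.41 to 13.3 ± 0.124 RPKM (SD, n = 4), which gave 0.67 on the log2 scale (limma adjusted p = 1.05e-06). DCHS1, a large cadherin that binds FAT4, rose by 0.61 (limma adjusted p = 0.000106), and by 0.52 without control replicate 1, its lowest library. WTIP and LIMD1, the closest relatives of AJUBA, rose by 0.58 (limma adjusted p = 2.38e-05) and 0.37 (limma adjusted p = 0.00163) on the log2 scale, next to the value of 0.033 for AJUBA itself. These 3 LIM-domain genes were at 1.86, 9.55 and 10.2 RPKM in the controls, for WTIP, LIMD1 and AJUBA.

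Of the 6 further nuclear effectors, 2 rose, 3 fell and TEAD3 did not pass, where 33% of all genes rose and 32.6% fell. VGLL4, which competes with YAP for TEAD factors, rose from 3.76 ± 0.287 to 4.6 ± 0.235 RPKM (SD, n = 4), or 0.23 on the log2 scale (limma adjusted p = 0.00253). VGLL2 and VGLL3, other TEAD cofactors, were near the threshold, at -0.12 (limma adjusted p = 0.0331) and 0.12 (limma adjusted p = 0.0490). VGLL2 lost its call in 4 of the 8 fits without 1 library, without TMM factors (adjusted p = 0.168) and with voom (adjusted p = 0.0581). VGLL3 lost it in 7 of those 8 fits and with median-of-ratios scaling (adjusted p = 0.0582). VGLL1 has no row in the table used here.

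Of 16 further target genes, 5 rose, 6 fell and 5 did not pass, shares close to the 33% and 32.6% of all genes. PTPN14, which did not pass, is counted both here and among the junction and scaffold regulators, but only once in the total of the further pathway genes. FJX1, the relative of a Drosophila Golgi kinase for cadherin domains, rose from 6.78 ± 0.36 to 11.2 ± 0.396 RPKM (SD, n = 4), or 0.65 on the log2 scale (limma adjusted p = 2.08e-06). ASAP1, a GTPase-activating protein for ARF, rose by 0.43 (limma adjusted p = 1.16e-05). NT5E, which encodes the ectonucleotidase CD73, rose by 0.41 (limma adjusted p = 8.03e-06) at a low level, from 0.484 to 0.968 RPKM, and by 1.0 with voom. MYOF, a ferlin of membrane repair, had a log2 fold change of -0.40 (limma adjusted p = 6.43e-06), and CCDC80, a matrix protein, one of -0.39 (limma adjusted p = 1.61e-05). GADD45A, a stress-induced regulator of the cell cycle, had a log2 fold change of -0.34 (limma adjusted p = 0.00392), which was -0.25 without control replicate 1, the highest library at 62.7 RPKM. Of 6 more genes that other studies place under YAP, 0 rose and 3 fell by limma, with the other 3 not passing. The same 33% and 32.6% of all genes stand beside these few.

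**Figure D4:**
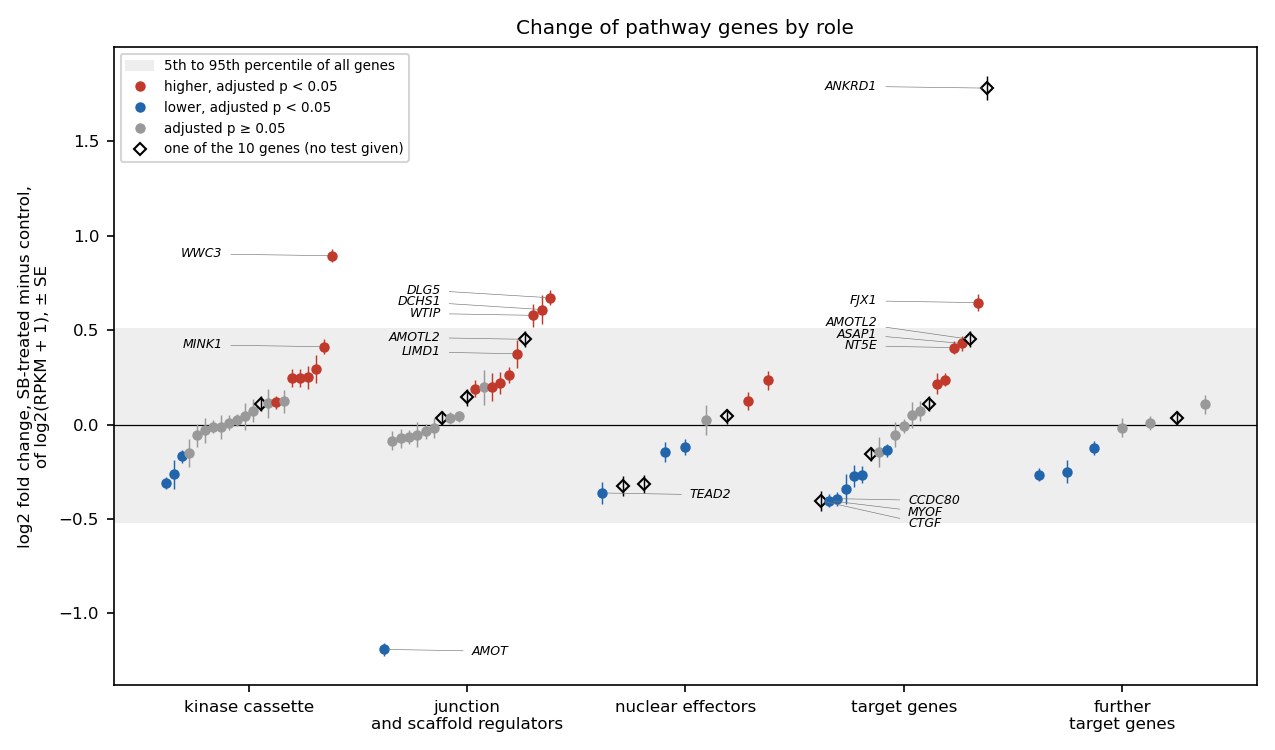
Log2 fold changes of log2(RPKM + 1) with SE are plotted for the pathway genes by role, each gene placed by size within its list, with filled points for genes tested by limma and open diamonds for the 10 genes. The grey band spans the 5th to 95th percentile of all 14526 genes, from -0.52 to 0.50, and ANKRD1, WWC3, AMOT, DLG5, DCHS1, WTIP and FJX1 lie outside it.

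ANKRD23, the muscle ankyrin repeat gene related to ANKRD1 that has a row, rose from 1.28 ± 0.0491 to 1.68 ± 0.123 RPKM (SD, n = 4), with a log2 fold change of 0.24 (limma adjusted p = 0.000722). ANKRD2 has no row. The control levels of ANKRD1 and ANKRD23 were thus alike, at 1.25 and 1.28 RPKM, and the SB-treated levels were 6.71 and 1.68 RPKM.

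The profile of ANKRD1 over the 8 libraries was compared with those of 13573 genes with a mean of at least 0.5 RPKM, after subtracting the mean of the controls from log2(RPKM + 1). The measure was the root mean square difference over the 8 libraries, on the log2 scale. The 5 nearest genes were TNFRSF12A at 0.134, C22orf23 at 0.183, CHPF2 at 0.257, SHC2 at 0.262 and VSIG2 at 0.268. TNFRSF12A was at 13.7 RPKM in the controls and at 50.7 RPKM with SB, and VSIG2 was at 0.387 and 2.77 RPKM. These genes were thus near ANKRD1 in change on the log2(RPKM + 1) scale and not in level. On that scale the pseudocount shrinks the change of genes of low RPKM. The ratios of the SB-treated to the control mean ran from 3.16 for SHC2 to 7.16 for VSIG2, beside 5.37 for ANKRD1. None of the other 9 pathway genes came close, their differences running from 0.949 for AMOTL2 to 1.55 for CTGF. The nearness is a description that rests mostly on the size of the rise on that scale, since all 8 libraries share the contrast.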

How the data were processed

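RNA-seq libraries of 4 control and 4 SB-treated HepG2 samples were analysed. The libraries were stranded and sequenced as single reads of 50 bases. The authors mapped the reads to hg38 with TopHat 2.1.0, counted them per gene with featureCounts 1.5.0, kept genes above a CPM (read count scaled to the library size) of 1 in at least 2 samples, applied TMM factors in edgeR 3.16.5, and deposited RPKM values for 14526 genes. The strand setting of the counting is not given in the sources used here, so reads from a gene and from one overlapping it on the opposite strand cannot be told apart. Besides CTGF, this holds for AMOTL1, LATS2, YAP1, WWTR1 and TEAD1, which opposite-strand noncoding genes without a row overlap. The deposited table also holds the authors' own comparison (log2 fold change, mean log2 CPM, p-value and FDR), which was not used, and 0 columns of per-sample values were left unused.

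The deposited RPKM values were log2 transformed after adding a pseudocount of 1 and tested with limma 3.58.1 (R 4.3.3), with the groups as the only term and Benjamini-Hochberg adjustment over all 14526 genes. P-values weigh the difference between the groups against the spread between the replicates within them. Low RPKM steps gave back whole reads for 100% of the genes within a tolerance of 0.001 of a read. These reads gave the depth and served voom in limma. Python 3.11.15 was used for the tables, and the recovery and the limma fit were tested on simulated data. Coordinates are from GENCODE release 44, and promoter sequences are from RefSeq on GRCh38.p14.

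The 10 genes and all gene lists were chosen with earlier results of these data known. Named beside the 10 genes are the genes of each list with an adjusted p-value below 0.05 and an absolute log2 fold change of at least 0.3, at most 6 a list, every other TEAD, VGLL, CCN or muscle ankyrin repeat gene with a row, and the 5 profiles nearest to ANKRD1. Alternatives were a pseudocount of 0.1, no TMM factors, median-of-ratios scaling, at least 10 reads in every library, a replicate block, voom, an intensity trend, and leaving out each library.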

Additional observations from a re-analysis of the deposited data

Results flagged for a closer look

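In 4 of the 72 groups of 4 libraries examined, a single library lay far from the other 3, judged by its gap to the nearest value as a part of the whole range of the group. By chance about 1 in 20 groups would be marked in this way. All 4 groups were SB-treated. For AJUBA, SB-treated replicate 1 was lowest at 9.79 RPKM, with a gap of 0.949 of the range. For ANKRD23, the same replicate was lowest at 1.5 RPKM, with a gap of 0.874 of the range. For TEAD4, SB-treated replicate 2 was highest at 20.9 RPKM, with a gap of 0.859 of the range, and for DLG5 it was highest at 13.4 RPKM, with a gap of 0.842 of the range.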

How the results depend on the processing

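Without TMM factors, 9 of the 67 further pathway genes fell in place of 16, and the log2 fold changes of the 10 genes moved upward with the median of all genes. TEAD3, which passed no test, changed sign to -0.049 without control replicate 1 and to -0.0090 without SB-treated replicate 3, in a range from -0.049 to 0.075 over the fits that left out 1 library. When each library was left out in turn, between 4311 and 5459 of all genes rose and between 4285 and 5511 fell, between 21 and 26 of the further pathway genes rose and between 14 and 19 fell, and ANKRD1 ranged from 1.75 to 1.85 on the log2 scale. Whether the replicate numbers mark paired samples cannot be decided from these data, with 4 libraries a group. Same-numbered control and SB-treated replicates had correlations of their deviations of 0.38, 0.327, 0.173 and -0.16 (mean 0.18, other pairs -0.054), and not every library correlated best with its own number. With the replicate block 25 of the further pathway genes rose and 17 fell, and 4885 and 4894 of all genes. Genes with few reads, such as WWC3 with 22 to 33 in each control, depend most on the pseudocount.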
